A study of Mus musculus with 96 samples.

Results

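Cholesterol synthesis and sterol regulation was followed through 31 genes in mouse liver, skeletal muscle and cerebral cortex. The genes were found by gene name among the 56748 genes of the count table. They comprise 19 enzymes of synthesis, 8 of them for the mevalonate and isoprenoid steps and 11 for the squalene and sterol steps. A further 4 genes control the sterol regulatory element-binding proteins (SREBP), 2 act in sterol uptake and transport, and 6 belong to the liver X receptors (LXR) and sterol efflux.

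Cholesterol is built from acetyl-CoA through mevalonate, the isoprenoid diphosphates, squalene and lanosterol. When the sterol content of the endoplasmic reticulum falls, the escort protein SCAP carries SREBP to the Golgi, where proteases release a transcription factor for the genes of the enzymes, and the INSIG proteins hold SCAP back when sterols are plentiful. LXR, which bind oxysterols, induce transporters that export sterols from cells, and the liver both makes much of the body's cholesterol and secretes it into bile.

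C57BL/6 mice either ate ad libitum (AL) or were kept on intermittent fasting (IF), which for the males meant 16 h of each day without food. For male mice the diets ran for 4 months from 6 weeks of age, the fast lasted from hour 16 to hour 8 of the clock, and the mice were killed between hours 7 and 12 and perfused with phosphate-buffered saline. Each tissue had 8 AL and 8 IF libraries from mice 1 to 16, labelled male, and 8 AL and 8 IF libraries from mice 25 to 40, labelled female. Age, feeding schedule and hour of death of the females were not given in the sources used here, so that the cohort and the sex of the mice cannot be told apart, and males and females were kept apart throughout. By the authors' account the hours of killing put the male IF mice at the close of a fast, and the hours since the last meal of single mice were not given. The hours in which the male IF mice could eat lay within the light phase of the animal house, whereas AL mice could eat at any hour. The length of the fast therefore cannot be told apart from the time of day of feeding. Whole tissue was sequenced, and fewer cells of a type cannot be told apart from less RNA per cell.

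The labels were checked against marker genes. Levels in CPM, which are counts put on a common library size after scaling by the trimmed mean of M values over all 95 libraries used, are given except in the check of sex. Summed over 5 hepatocyte markers, led by Alb, liver libraries of mice 1 to 16 held between 39200 and 62720 CPM in AL and between 31680 and 58280 CPM in IF mice, and muscle libraries of the same mice at most 3.48 CPM. The 5 skeletal muscle markers, led by Acta1, summed to at least 137900 CPM in muscle of these mice. The 5 neuron markers, led by Snap25, summed to at least 3795 CPM in cortex of mice 1 to 16. For sex all 96 libraries were compared by CPM of the library total without this scaling (raw CPM). Of the 48 libraries labelled female, each had at least 36.8 raw CPM of Xist and at most 0.0746 raw CPM over 4 genes of the Y chromosome. In 47 libraries labelled male Xist reached at most 0.612 raw CPM and the Y genes at least 67.9 raw CPM. The cortex library of AL mouse 1 went against its label, with 213 raw CPM of Xist and 0 raw CPM of the Y genes, and was omitted by a rule given with the gene list from all fits but 1 alternative for cortex, which left 7 AL cortex libraries of males.

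The counts on genes per library lay between 26097314 and 44763638 in AL and between 31458822 and 40826057 in IF liver of mice 1 to 16, and between 29779699 and 41530063 in AL and between 26693099 and 37906982 in IF liver of mice 25 to 40. Muscle libraries held between 29181553 and 46889676 counts (AL) and between 28319147 and 45019446 counts (IF) in the males, and between 30141767 and 49838004 (AL) and between 36331661 and 44165322 (IF) in the females. In cortex the totals were between 32373437 and 39314534 for AL and between 31956366 and 36239203 for IF males, and between 31231970 and 39411095 for AL and between 33615626 and 40235336 for IF females. Positions are those of the count table on GRCm39. Other annotated genes overlapped 16 of the 31 genes, 6 of them on the same strand, and since the strand setting of the counting was not stated, the counts of these 16 are uncertain to that extent. Abcg5 and Abcg8 overlap each other on opposite strands. Fdps also has processed pseudogenes with which reads could be shared.

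Before the diets were compared, levels in the tissues were compared between AL libraries. Of 17455 genes with a mean of at least 1 CPM, 15.9% had every AL liver library of both cohorts above every AL library of the other tissues, and 20 of the 31 genes did. The corresponding shares were 14.9% for muscle, with 0 of the 31 genes, and 23.5% for cortex, with 3 of the 31, namely Ggps1, Srebf2 and Abcg1, and the remaining 8 genes overlapped. Among the 20, Fdps, Abcg5 and Abcg8 had AL means under 1 CPM in muscle and cortex and passed the filter of 1 CPM through liver. For these the higher level in liver is tied to that filter. No test was run on these counts. Per kilobase of gene length, Hmgcs1, the cytosolic HMG-CoA synthase, was the most abundant of the 31 in AL liver of mice 1 to 16, with a mean of 129 RPKM, ahead of Ebp, the sterol isomerase, with 89 RPKM and Insig1 with 80.8 RPKM. In muscle of the same mice the highest mean was that of Fdft1, squalene synthase, at 26.2 RPKM, followed by the LXR gene Nr1h2 at 23.6 RPKM. In cortex Hmgcs1 led at 27.1 RPKM, followed by Srebf2, which encodes SREBP2, at 25.46 RPKM. The sterol exporters Abcg5 and Abcg8, at 44.6 and 19.8 RPKM in AL liver, reached at most 0.123 CPM in any muscle or cortex library for Abcg8 and 0.075 CPM for Abcg5. Hence the test covered 31 of the genes in liver, 28 in muscle, where Fdps was too low as well, and 29 in cortex.

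The comparison of IF with AL liver asks how these mRNAs differed between the feeding schedules. In livers of mice 1 to 16, 18 of the 31 genes fell and 5 rose, by edgeR's quasi-likelihood test with a Benjamini-Hochberg adjusted p under 0.05 over all genes tested. Of all 16204 genes tested, 21.1% fell and 23.5% rose. The median log2 fold change of the 31 genes was -0.72 and that of all genes tested 0.06, where a negative value means less mRNA in IF mice. Among the mevalonate and isoprenoid enzymes 5 of 8 fell and 1 rose, and among the squalene and sterol enzymes 8 of 11 fell and 0 rose. SREBP control had 3 of 4 genes that fell, whereas 3 of the 6 LXR and efflux genes rose and 1 fell. AL and IF libraries did not overlap in 13 of the 31 genes, 12 of them lower and 1 higher in IF mice, and in 14.7% of all genes tested.

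**Figure D1:**
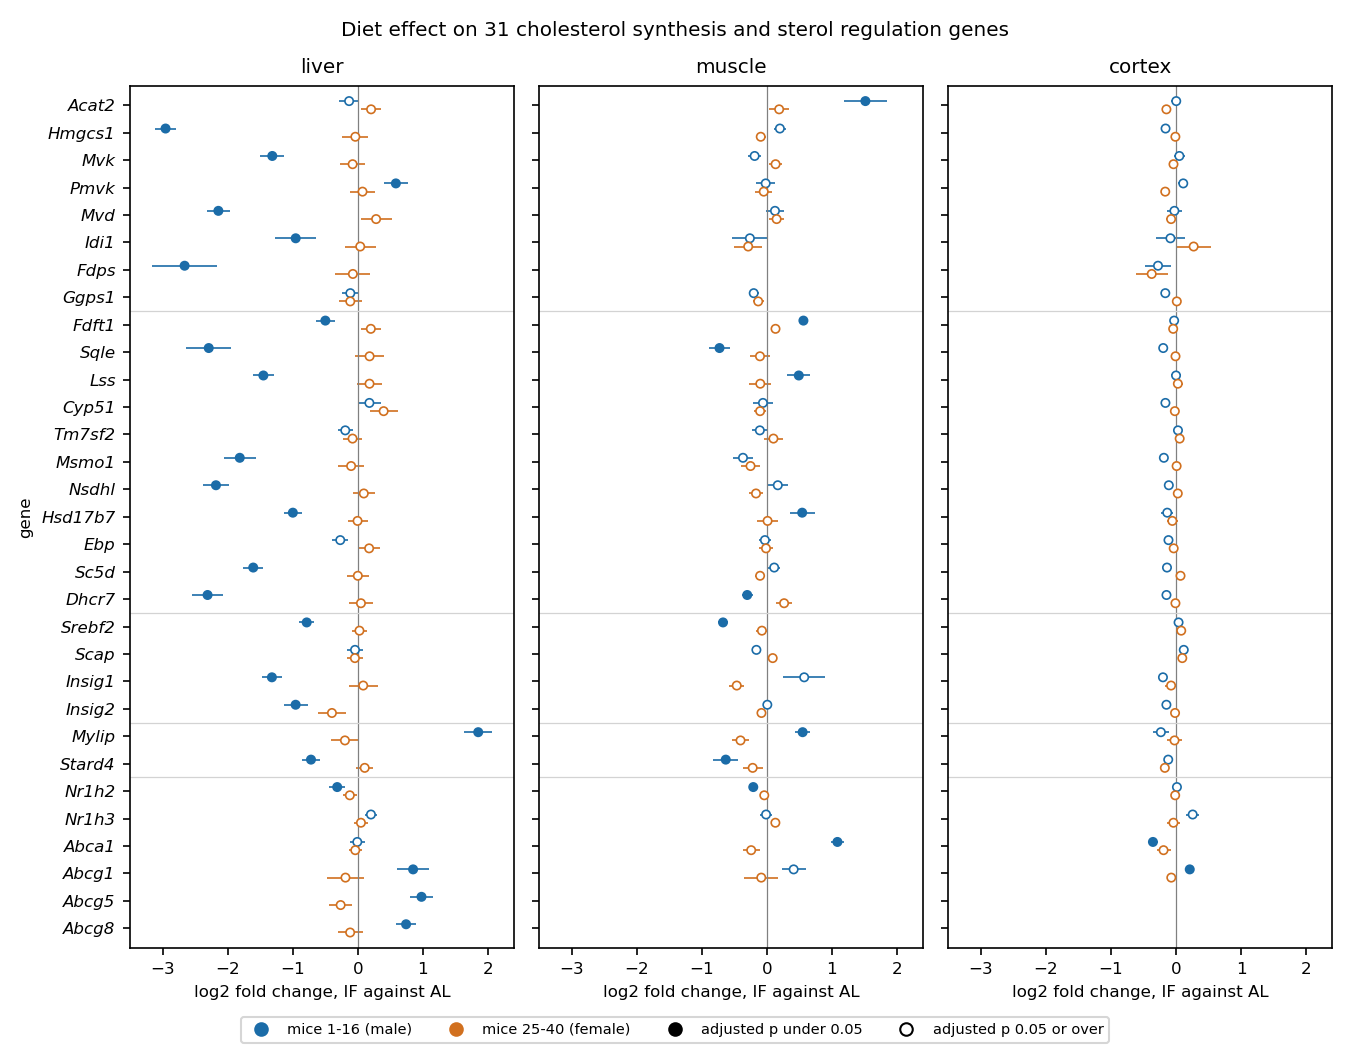
Log2 fold change of IF against AL mice with its standard error (bars) for each of the 31 genes (vertical axis, ordered by role, grey lines between roles) in liver, muscle and cortex, for mice 1-16 and mice 25-40; filled points had an adjusted p under 0.05 in edgeR's quasi-likelihood test. In liver of mice 1-16 the filled points run from -2.96 for Hmgcs1 to 1.85 for Mylip, and no point of mice 25-40 is filled.

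Hmgcs1 (ENSMUSG00000093930, chr13:120151915-120169796) had between 341 and 779 CPM (median 611) in AL and between 56.1 and 91.8 CPM (median 76.2) in IF mice (n = 8 each). Its mRNA fell by 2.96 on the log2 scale (standard error, SE, 0.17, adjusted p = 5.19e-12), and every IF liver lay below every AL liver. Mvk, mevalonate kinase (ENSMUSG00000041939, chr5:114582330-114598652), had between 16 and 27.6 CPM (median 19.3) in AL and between 4.71 and 14.3 CPM (median 7.60) in IF mice, a log2 change of -1.32 (SE 0.18, adjusted p = 3.06e-06) without overlap. Mvd (ENSMUSG00000006517, chr8:123160340-123170161), which decarboxylates mevalonate diphosphate, was likewise apart, at between 30.8 and 103 CPM (median 52.1) in AL and between 10.2 and 15.6 CPM (median 12.53) in IF mice, a log2 change of -2.14 (SE 0.18, adjusted p = 2.33e-09). The low level of Fdps, farnesyl diphosphate synthase, spread widely among AL livers, with between 2.03 and 19.4 CPM (median 5.14) in AL and between 0.661 and 3.503 CPM (median 0.923) in IF mice, and changed with a log2 change of -2.66 (SE 0.50, adjusted p = 0.000296), although the diets overlapped. Idi1, which isomerizes isopentenyl diphosphate, fell with a log2 change of -0.96 (SE 0.32, adjusted p = 0.016) and also overlapped. The first and the last gene of this group did not pass, namely Acat2, acetoacetyl-CoA thiolase, with a log2 change of -0.13 (adjusted p = 0.493), and Ggps1, geranylgeranyl diphosphate synthase, with -0.12 (adjusted p = 0.464). Pmvk, phosphomevalonate kinase, went the other way, from 17.6 to 41.52 CPM (median 22.8) in AL to 24.2 to 55.2 CPM (median 34.4) in IF livers, a log2 change of 0.59 (SE 0.18, adjusted p = 0.0118), with overlap between the diets. Acat2, Ggps1, Pmvk and Idi1 were named after their values were seen.

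Of the enzymes from squalene onward, Sqle, squalene epoxidase (ENSMUSG00000022351, chr15:59186926-59203041), had between 15.1 and 77.3 CPM (median 27.03) in AL and between 3.497 and 14.6 CPM (median 5.57) in IF mice, which gave a log2 change of -2.29 (SE 0.35, adjusted p = 5.09e-05). The AL and IF livers were apart, though narrowly, with 15.1 CPM in the lowest AL liver and 14.6 CPM in the highest IF liver. Dhcr7 (ENSMUSG00000058454, chr7:143376882-143402147), a reductase of the last steps to cholesterol, had between 59.48 and 116 CPM (median 78.4) in AL and between 7.19 and 26.3 CPM (median 17.8) in IF mice, a log2 change of -2.31 (SE 0.24, adjusted p = 2.88e-07). Nsdhl (ENSMUSG00000031349, chrX:71962163-72002120), a sterol dehydrogenase in the removal of the methyl groups of lanosterol, fell from 47.2 to 101 CPM (median 77.8) in AL to 8.54 to 25.9 CPM (median 15.6) in IF livers, a log2 change of -2.18 (SE 0.20, adjusted p = 1.71e-08). In neither gene did any IF mouse reach the level of any AL mouse.

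Msmo1 (ENSMUSG00000031604, chr8:65171173-65186826), the methylsterol monooxygenase, had between 72.9 and 163 CPM (median 109) in AL and between 16.9 and 58.6 CPM (median 25.8) in IF mice, a log2 change of -1.82 (SE 0.25, adjusted p = 9.8e-06). Sc5d (ENSMUSG00000032018, chr9:42162891-42175552), the sterol desaturase, was abundant in AL livers with 224 to 441 CPM (median 329.5) and had 72.8 to 152 CPM (median 91.6) in IF livers, a log2 change of -1.61 (SE 0.16, adjusted p = 1.24e-08). Lss (ENSMUSG00000033105, chr10:76367422-76392972), which closes the rings of lanosterol, went from 37.4 to 95.1 CPM (median 48.8) to 16.48 to 23.7 CPM (median 19.8), a log2 change of -1.45 (SE 0.16, adjusted p = 8.99e-08). These 3 genes did not overlap between the diets, nor did Hsd17b7, a sterol ketoreductase (ENSMUSG00000026675, chr1:169777104-169796810), at -0.999 (adjusted p = 2.51e-06). Fdft1 (ENSMUSG00000021273, chr14:63382599-63417027), which commits the pathway to squalene, fell less, with a log2 change of -0.50 (SE 0.14, adjusted p = 0.00644), from 108 to 195 CPM (median 137) to 71.3 to 148 CPM (median 96.1), and its diets overlapped. The 3 sterol enzymes that did not pass were Cyp51, lanosterol demethylase, with 0.18 (adjusted p = 0.446), the sterol reductase gene Tm7sf2 with -0.19 (adjusted p = 0.194) and Ebp with -0.27 (adjusted p = 0.0808), named after their values were seen. Cyp51 had between 45.49 and 92.1 CPM (median 56.9) in AL and between 45.9 and 103 CPM (median 60.1) in IF mice, so that its ranges almost coincided.

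Within a diet the enzymes had shared extremes. AL mouse 2 had the highest level for 14 of the 19 enzymes among the AL livers, and IF mouse 11 for 10 and IF mouse 10 for 7 of the 19 among the IF livers. For Sqle, AL mouse 2 reached 77.3 CPM and IF mouse 11 14.6 CPM. All 19 enzymes were read in the same libraries, and the counts of extremes were not tested.

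Srebf2 (ENSMUSG00000022463, chr15:82031382-82089580) had between 41.9 and 69.2 CPM (median 54.8) in AL and between 23.7 and 33.8 CPM (median 31.4) in IF mice, a log2 change of -0.79 (SE 0.11, adjusted p = 4.76e-06), and no IF liver reached an AL liver. Insig1 (ENSMUSG00000045294, chr5:28276361-28283660), itself a target of SREBP, was also apart, with between 197 and 372 CPM (median 225) in AL and between 72.8 and 143 CPM (median 92.3) in IF mice and a log2 change of -1.32 (SE 0.15, adjusted p = 1.97e-07). Insig2 (ENSMUSG00000003721, chr1:121232082-121260318) fell with a log2 change of -0.96 (SE 0.18, adjusted p = 0.000194), from 127 to 249 CPM (median 169) to 44.3 to 143 CPM (median 92.8), and overlapped. Scap, named after its values were seen, did not pass, with -0.04 (adjusted p = 0.799). Mylip (ENSMUSG00000038175, chr13:45543218-45565498), a ubiquitin ligase that LXR induces and that marks lipoprotein receptors for degradation, rose from 3.43 to 7.17 CPM (median 4.15) to 7.74 to 25.3 CPM (median 14.8), a log2 change of 1.85 (SE 0.21, adjusted p = 1.6e-07). It was the single gene of the 31 whose IF livers all lay above all AL livers. Stard4, a sterol transfer protein, fell with a log2 change of -0.72 (SE 0.14, adjusted p = 0.000223), with overlap.

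The sterol exporters of the bile canaliculus, Abcg5 (ENSMUSG00000040505, chr17:84965662-84990439) and Abcg8 (ENSMUSG00000024254, chr17:84983730-85007761), rose. Abcg5 had between 88.3 and 159.6 CPM (median 122) in AL and between 138 and 378 CPM (median 229) in IF mice, a log2 change of 0.98 (SE 0.18, adjusted p = 9.42e-05), and Abcg8 changed with a log2 change of 0.74 (SE 0.15, adjusted p = 0.000267), both with overlap between the diets. Abcg1, an exporter to high-density lipoproteins, rose as well, with a log2 change of 0.85 (SE 0.24, adjusted p = 0.00601) at 3.27 to 11.8 CPM (median 5.75) in IF livers. Abca1, the other exporter to lipoproteins, had between 60.95 and 102 CPM (median 75.7) in AL and between 65.4 and 91.9 CPM (median 71.4) in IF mice and a log2 fold change of -0.01 (adjusted p = 0.959). Neither did Nr1h3, the LXR gene of liver and macrophages, pass, at 0.20 (adjusted p = 0.101), while Nr1h2, the LXR gene found in most tissues, fell with a log2 change of -0.32 (SE 0.12, adjusted p = 0.0354). Abcg1 and Nr1h2 were named after their values were seen.

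Markers of other cell types moved with the diet in these livers. The 5 erythrocyte markers, of which 3 rose and 0 fell, summed to between 436 and 989 CPM in AL and between 733 and 6572 CPM in IF livers, with Hba-a1 the most abundant, and IF mice 9, 10, 14 and 16 held 6572, 5106, 2668 and 3211 CPM. The 3 endothelial markers, led by Kdr, summed to between 39.9 and 54.3 CPM in AL and between 60.2 and 87.2 CPM in IF livers, and 1 of them rose. The 3 cholangiocyte markers, led by Krt19, all rose and summed to between 4.55 and 12.47 CPM in AL and between 11.1 and 33.8 CPM in IF livers. Of the hepatocyte markers 0 of 5 passed in either direction by edgeR. With the erythrocyte sum as a covariate, an alternative chosen after the data were seen, 19 of the 23 genes were still called, and with IF mice 9, 10, 14 and 16 left out 20 were. The calls lost with the covariate were those of Fdft1 (-0.53), Pmvk (0.41), Abcg1 (0.66) and Nr1h2 (-0.20), and those lost without the 4 mice were Pmvk (0.50), Abcg1 (0.59) and Nr1h2 (-0.24). The call of Nr1h2 was also lost with 7 mice per group, at -0.24. Of the 4 macrophage markers 1 rose, with sums between 62 and 86.2 CPM in AL and between 54.6 and 258 CPM in IF livers, the highest in IF mouse 16. Of 2 adipocyte markers tested 1 fell, with sums between 26 and 47.3 CPM in AL and between 10.4 and 26.8 CPM in IF livers. Of markers listed for neurons 1 of 2 tested rose, and of those for astrocytes and for oligodendrocytes 1 of 3 rose and 1 fell. The astrocyte list, led in liver by Aldh1l1, summed to between 769.8 and 952.3 CPM in AL livers. In AL cortex of mice 1 to 16 it summed to between 305.3 and 442.1 CPM, so that in liver it does not mark astrocytes. The part of the endothelial, cholangiocyte and these further markers in the result was not tested.

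**Figure D2:**
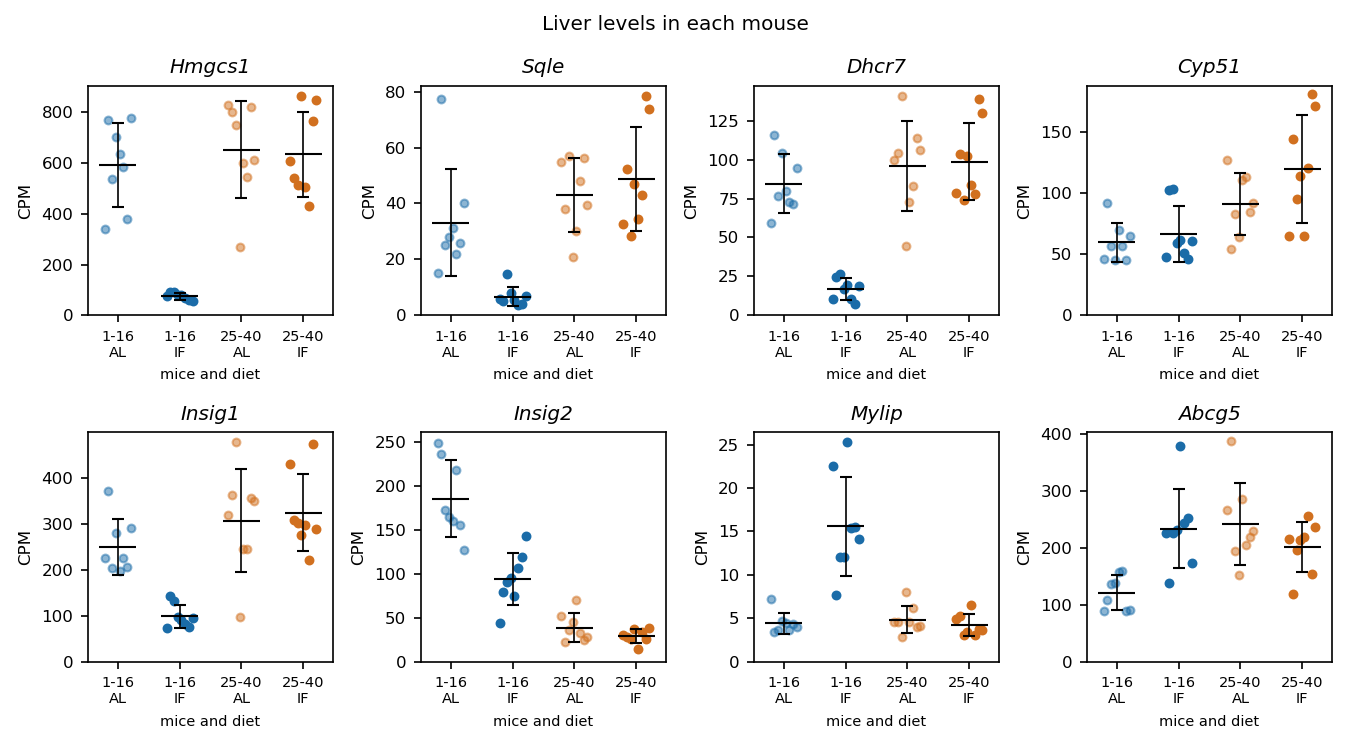
Liver level in CPM (vertical axes, from 0) of 8 genes in each mouse (points), by cohort and diet, with the mean (line) and SD (bars) of each group of 8; the genes were chosen after the values were seen. The points of AL and IF mice 1-16 are apart for Hmgcs1, Sqle, Dhcr7, Insig1 and Mylip, and those of mice 25-40 overlap in each of the 8 genes.

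In livers of mice 25 to 40, 0 of the 31 genes passed edgeR's test in either direction, where 0% of the 15938 genes tested were lower and 0% higher. At an unadjusted p under 0.05 there were again 0 of the 31 and 919 of all genes, and DESeq2 called 0 of the 31 and 6 genes in all. The log2 fold changes of the 31 ran from -0.40 for Insig2 to 0.40 for Cyp51, with a median of 0.00 against -0.01 for all genes. Hmgcs1 had between 269 and 828 CPM (median 682) in AL and between 432 and 864 CPM (median 575) in IF mice, and its log2 fold change of -0.04 had a 95% confidence interval from -0.43 to 0.35. Sqle had between 20.7 and 56.9 CPM (median 43.7) in AL and between 28.2 and 78.3 CPM (median 44.9) in IF mice, and Srebf2 between 62.4 and 78.3 CPM (median 70.9) in AL and between 58.7 and 95.6 CPM (median 72.1) in IF mice. In these genes, as in all 31, the diets overlapped. Insig1, Nr1h3 and Abca1 had log2 changes of 0.08 (adjusted p = 0.971), 0.05 (adjusted p = 0.961) and -0.04 (adjusted p = 0.967).

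As in the males, extremes among female livers were shared between the enzymes. For Hmgcs1 the SD among AL livers was 41.5 RPKM in females (mean 142) and 36.2 RPKM in males (mean 129). Among IF livers it was 36.6 RPKM in females (mean 138) and 2.87 RPKM in males (mean 16.3). AL mouse 28 had the lowest level for 17 of the 19 enzymes among AL females and IF mouse 39 the highest for 15 of the 19 among IF females. Hmgcs1 stood at 269 CPM in mouse 28. The same library had the highest sum of 4 macrophage markers, led by C1qa, at 444 CPM, against 112 CPM in the median AL female. Without it 0 of the 31 genes passed edgeR's test as well. Mylip had between 2.84 and 8.02 CPM (median 4.57) in AL and between 3.12 and 6.52 CPM (median 3.73) in IF mice, and Abcg5 between 152 and 387 CPM (median 224) in AL and between 119.6 and 256 CPM (median 215) in IF mice, so that levels of Abcg5 in AL females (152 to 387 CPM (median 224)) were within reach of those in IF males (138 to 378 CPM (median 229)). Insig2 differed between the cohorts in AL livers, with 127 to 249 CPM (median 169) in males and 22.6 to 70.4 CPM (median 33.98) in females. The levels of the cohorts do not overlap for Insig2, but this difference was not tested.

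The difference between the cohorts in their response to the diet was tested as an interaction of sex and diet over the 32 libraries of liver. Of 17658 genes 23.7% passed, and 18 of the 31 did, of which 15 had the more positive response in females and 3 the more negative. Hmgcs1 had a female minus male difference of 2.95 (SE 0.27, adjusted p = 9.14e-10). For Sqle it was 2.51 (SE 0.43, adjusted p = 6.35e-05), and for Dhcr7 2.39 (SE 0.31, adjusted p = 9.36e-07). Nsdhl, Mvd, Fdps, Msmo1, Lss, Sc5d, Mvk and Hsd17b7 passed with differences between 1.03 for Hsd17b7 and 2.62 for Fdps, and Fdft1 with 0.73, a call lost without IF mice 9, 10, 14 and 16 and AL mouse 28 (0.64). Of the regulators, Insig1 differed by 1.44 (SE 0.29, adjusted p = 0.000286), Srebf2 by 0.85 (SE 0.16, adjusted p = 9.18e-05) and Stard4 by 0.86. The 3 genes with the more negative response in females were Mylip, at -2.02 (SE 0.30, adjusted p = 4.38e-06), Abcg5, at -1.21 (SE 0.26, adjusted p = 0.00062), and Abcg8, at -0.82. Insig2 did not pass, at 0.59 (SE 0.31, adjusted p = 0.164), and Abcg1 missed the threshold, at -1.01 (SE 0.38, adjusted p = 0.0511).

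In muscle of mice 1 to 16, 5 of the 28 genes tested fell and 6 rose, where 11.6% of all 15025 genes tested fell and 11.5% rose. The median log2 fold change of the 28 was -0.02 and that of all genes 0.01. The enzymes were divided, with 1 of 7 mevalonate and isoprenoid genes higher and 0 lower, and 3 of 11 squalene and sterol genes higher and 2 lower. AL and IF libraries were apart in 4 of the genes, 2 in each direction, and in 3.9% of all genes tested.

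Abca1 (ENSMUSG00000015243, chr4:53030787-53159895) had between 5.91 and 10.9 CPM (median 8.39) in AL and between 15.3 and 20.9 CPM (median 17.2) in IF mice, a log2 change of 1.09 (SE 0.10, adjusted p = 2.61e-07), and each IF muscle lay above each AL muscle. Fdft1, apart in the same direction, had between 89.8 and 122 CPM (median 112) in AL and between 141 and 179.6 CPM (median 157) in IF mice and a log2 change of 0.56 (SE 0.07, adjusted p = 3.2e-06). In the opposite direction, Srebf2 was apart with between 24.98 and 32.4 CPM (median 28.1) in AL and between 13.9 and 20 CPM (median 17.8) in IF mice and a log2 change of -0.67 (SE 0.08, adjusted p = 3.48e-06). Dhcr7 fell without overlap by a smaller amount, with a log2 fold change of -0.30 (SE 0.08, adjusted p = 0.0104), from 8.69 to 11.2 CPM (median 9.78) to 6.67 to 8.42 CPM (median 8.06). Mylip rose from 7.99 to 14.9 CPM (median 12.49) to 14.8 to 20.6 CPM (median 17.6), a log2 change of 0.55 (SE 0.11, adjusted p = 0.00111), with a narrow overlap. Sqle, low in muscle, fell from 2.67 to 4.67 CPM (median 3.75) to 1.39 to 2.94 CPM (median 2.41), a log2 change of -0.73 (SE 0.17, adjusted p = 0.00302). Stard4 and Nr1h2 fell as well, at -0.63 (adjusted p = 0.02) and -0.21 (adjusted p = 0.0301), and were named after their values were seen. Insig2 and Nr1h3 did not pass, at 0.01 (adjusted p = 0.952) and -0.01 (adjusted p = 0.943).

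Acat2 had between 2.84 and 7.46 CPM (median 4.11) in AL and between 5.77 and 32.2 CPM (median 9.56) in IF mice and rose with a log2 change of 1.52 (SE 0.33, adjusted p = 0.00376). Insig1, with between 7.53 and 15.6 CPM (median 11.3) in AL and between 8.61 and 40.1 CPM (median 10.4) in IF mice, did not pass, at 0.57 (adjusted p = 0.23). In both genes the highest value was that of IF mouse 12, with 32.2 CPM of Acat2 and 40.1 CPM of Insig1, and this mouse was highest among IF muscles for 8 of 17 enzymes with a mean of at least 1 CPM. Adipocyte markers moved with the diet in the same libraries. All 5 rose, and their sum, led by Fabp4, lay between 229 and 965 CPM in AL and between 529 and 4594 CPM in IF muscles, with 2490, 3103, 4594 and 2240 CPM in IF mice 9, 10, 12 and 16. Of the other markers in these muscles 2 of those listed for astrocytes rose, in a list led in muscle by Aqp4. Of the skeletal muscle, macrophage and endothelial markers 1 each fell.

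With the adipocyte sum as a covariate, an alternative added after the data were seen, the log2 fold change of Acat2 was 0.20 and did not pass, and that of Insig1 turned to -0.78. Without IF mice 9, 10, 12 and 16 Acat2 stood at 0.80 and Insig1 at -0.28. Fdft1 and Abca1 were called in both settings, at 0.57 and 1.22 with the covariate. Of the 11 genes called, 6 were called with the covariate and 9 without the 4 mice, where 10 and 11 of the 28 were called in all. Dhcr7 and Mylip kept their direction but lost their calls with the covariate, at -0.34 and 0.49. Lss rose with a log2 change of 0.49 (SE 0.17, adjusted p = 0.0448) and Hsd17b7 with 0.54 (SE 0.19, adjusted p = 0.0495), both close to the threshold. Both calls were lost without a filter on low counts, where Lss stood at 0.495 and Hsd17b7 at 0.547. They were also lost with 7 mice per group, at 0.51 for Lss and 0.575 for Hsd17b7. The change of Hsd17b7 was larger with the covariate, at 0.95, and without the 4 mice, at 0.73, and it was called in both. Lss also lost its call with the covariate (0.15), without the 4 mice (0.26) and with the replicate number as a block (0.44). Stard4 lost its call with the covariate (-0.76) and without the 4 mice (-0.52). Dhcr7 and Nr1h2 lost theirs without a filter, at -0.298 and -0.205. Nr1h3, not called otherwise, was among the genes that gained a call with the covariate, at -0.40.

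**Figure D3:**
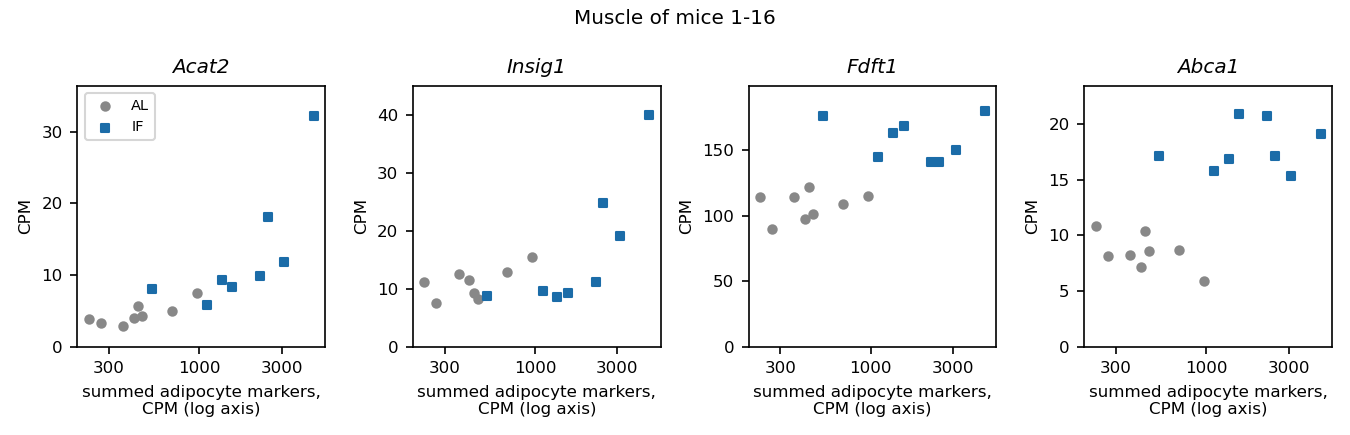
Level in CPM (vertical axes, from 0) of Acat2, Insig1, Fdft1 and Abca1 in each muscle library of mice 1-16, against the sum of 5 adipocyte markers in the same library (horizontal log axis, CPM), AL mice as grey circles and IF mice as blue squares; the genes were chosen after the values were seen. IF mouse 12, at 4594 CPM of adipocyte markers, has the highest Acat2 and Insig1, while Fdft1 and Abca1 are higher in each IF mouse than in each AL mouse.

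In muscle of mice 25 to 40, 0 of the 28 genes tested passed edgeR's test, where 0% of the 15308 genes tested fell and 0.00653% rose. At an unadjusted p under 0.05, 4 of the 28 and 1644 of all genes passed, and DESeq2 called 1 of the 28, Insig1, and 97 genes in all. Insig1 had between 8.33 and 13.5 CPM (median 10.53) in AL and between 5.64 and 9.44 CPM (median 7.84) in IF mice, a log2 change of -0.46 (SE 0.12, adjusted p = 0.201) with edgeR. Abca1 had between 10.6 and 19.8 CPM (median 14.1) in AL and between 9.54 and 15.3 CPM (median 12.4) in IF mice, and Srebf2 between 22.4 and 30.9 CPM (median 25.4) in AL and between 19.3 and 29.1 CPM (median 25.1) in IF mice, and the diets overlapped in both. Insig2 and Nr1h3 had log2 changes of -0.08 (adjusted p = 0.627) and 0.13 (adjusted p = 0.52).

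Of 16346 genes in muscle, 14.2% passed the interaction of sex and diet, and 9 of the 29 tested did, 4 with the more positive and 5 with the more negative response in females. Of these 9, 8 were also called with the replicate number as a block. Abca1 had a female minus male difference of -1.31 (SE 0.17, adjusted p = 8.33e-06). Fdft1 differed by -0.41 (SE 0.09, adjusted p = 0.00145), Mylip by -0.94 (SE 0.18, adjusted p = 0.000409) and Srebf2 by 0.62 (SE 0.12, adjusted p = 0.000579). Acat2 and Insig1, whose male values were highest in IF mouse 12, had differences of -1.31 and -1.02. Without IF mice 9, 10, 12 and 16 these were -0.60 and -0.18 and not called. The others were Sqle at 0.64, which without these 4 mice was 0.66 and not called, Dhcr7 at 0.59 and Scap at 0.27.

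In cortex of mice 1 to 16, 1 of the 29 genes tested fell and 1 rose, where 3.43% of the 18462 genes tested fell and 3.79% rose. Abca1 had between 9.07 and 10.6 CPM (median 9.61) in AL and between 6.62 and 9.79 CPM (median 7.21) in IF mice and fell with a log2 change of -0.35 (SE 0.08, adjusted p = 0.0158). Abcg1, in the brain an exporter of astrocytes and neurons, had between 43.3 and 52.9 CPM (median 46.8) in AL and between 51.6 and 58.4 CPM (median 53.2) in IF mice and rose with a log2 change of 0.21 (SE 0.06, adjusted p = 0.0248). In both genes the diets overlapped. Both calls were lost with the replicate number as a block, where Abca1 stood at -0.34 and Abcg1 at 0.22. They were also lost with the cortex library of mouse 1 included, at -0.30 for Abca1 and 0.20 for Abcg1. Abcg1 lost its call as well without a filter (0.21) and without AL mouse 2 and IF mouse 10 (0.20). The other genes did not pass, among them Srebf2, with between 164 and 216 CPM (median 174) in AL and between 165 and 211 CPM (median 182) in IF mice and a log2 change of 0.04 (SE 0.07, adjusted p = 0.787).

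Of the enzymes in this cortex 0 of 8 and 0 of 11 passed edgeR's test, with medians of -0.05 for the mevalonate and isoprenoid and -0.13 for the squalene and sterol genes, against -0.01 for all genes tested. At an unadjusted p under 0.05, 12 of the 29 genes and 4400 of all genes passed, and DESeq2 called 6 and 2259. Insig1 and Insig2 had log2 fold changes of -0.20 (adjusted p = 0.0664) and -0.15 (adjusted p = 0.153), and Nr1h3 of 0.26 (adjusted p = 0.118). Oligodendrocyte markers, led by Mbp, moved with the diet, since 4 of 5 rose and their sum lay between 3043 and 4653 CPM in AL and between 4080 and 6681 CPM in IF cortices. Of the other markers 1 astrocyte and 1 adipocyte marker fell. With the oligodendrocyte sum as a covariate, added after the data were seen, 0 of the 29 genes and 1 of all genes passed in edgeR. In that fit Abca1 stood at -0.22 and Abcg1 at 0.16. Ttr, a gene of the hepatocyte list, made up nearly all of the sums over that list of 399, 2153, 2334 and 1075 CPM in mice 2, 4, 11 and 14. The other 4 genes of the list had means under 1 CPM, so that in cortex these sums give the level of Ttr and do not mark hepatocytes. Without these 4 mice 0 of the 29 genes and 76 of all genes passed edgeR's test. Abca1 then stood at -0.36 and Abcg1 at 0.17.

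Females had 0 of 29 genes called in cortex by edgeR, where 0.0109% of the 18403 genes tested fell and 0% rose. At an unadjusted p under 0.05, 4 of the 29 and 2069 of all genes passed, and DESeq2 called 0 and 68. Abca1 had between 7.54 and 10.8 CPM (median 8.93) in AL and between 6.26 and 10.53 CPM (median 7.59) in IF mice, a log2 change of -0.19 (SE 0.11, adjusted p = 0.497), and Abcg1 had between 45.54 and 53.1 CPM (median 49.7) in AL and between 43.6 and 51.7 CPM (median 45.46) in IF mice, a log2 change of -0.07 (SE 0.05, adjusted p = 0.576). Srebf2, Insig1, Insig2 and Nr1h3 lay between -0.07 for Insig1 and 0.08 for Srebf2. The interaction of sex and diet passed for 2.03% of 19547 genes and for 1 of the 29, Abcg1, with a female minus male difference of -0.28 (SE 0.07, adjusted p = 0.0269). Without the libraries high in Ttr, mice 34 and 36 of the females included, the difference was -0.25 and not called.

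The responses of the tissues were set against each other within a cohort. Of 21608 genes in mice 1 to 16, the diet effect differed between liver and muscle in 33.7%. Of the 13345 genes that were tested in both liver and muscle 46.1% differed, and 17 of the 28 such genes of the pathway did, 15 of them lower and 2 higher in liver. Liver and cortex differed in 30.1% of the 21608 genes, in 39% of the 14300 tested in both, and in 18 of the 29 such genes of the pathway, 17 lower and 1 higher in liver. Fdps, Abcg5 and Abcg8 in muscle, and Abcg5 and Abcg8 in cortex, were too low to be tested and are not counted. Hmgcs1 had a liver minus muscle difference of -3.20 (SE 0.17, adjusted p = 2.83e-19) and a liver minus cortex difference of -2.83 (SE 0.17, adjusted p = 3.22e-17). Srebf2 differed between liver and cortex by -0.86 (SE 0.13, adjusted p = 7.88e-07) but not between liver and muscle, at -0.16 (SE 0.13, adjusted p = 0.383). Mylip was higher in liver in both comparisons, by 1.26 (SE 0.23, adjusted p = 2.76e-05) against muscle and by 2.05 (SE 0.24, adjusted p = 2.43e-09) against cortex. The other gene higher in liver than in muscle was Pmvk, named after its values were seen, at 0.56 (SE 0.22, adjusted p = 0.0455).

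Opposite changes that passed in both tissues of these mice, with a difference that passed too, were found in 3 enzymes. Fdft1 fell in liver (-0.50) and rose in muscle (0.56), a difference of -1.10 (SE 0.15, adjusted p = 4.94e-08). Lss fell by 1.45 on the log2 scale in liver and rose by 0.49 in muscle, a difference of -1.99 (SE 0.22, adjusted p = 3.11e-10). For Hsd17b7 the values were -0.999 and 0.54, a difference of -1.58 (SE 0.22, adjusted p = 1.57e-07). The muscle calls of Lss and Hsd17b7 were close to the threshold, and that of Lss was lost in 5 settings, among them the adipocyte covariate, where it stood at 0.15, and the omission of IF mice 9, 10, 12 and 16, at 0.26. Without the libraries high in erythrocyte markers in liver and in adipocyte markers in muscle the difference between the tissues was -1.68 for Lss and still called. Abca1 rose in muscle (1.09) and fell in cortex (-0.35), and that difference was not tested. In mice 25 to 40, 0 of the 28 and 0 of the 29 genes tested in both tissues passed these comparisons by edgeR. Of all genes tested in both tissues, 0.0374% of 13365 differed between liver and muscle and 0.0213% of 14100 between liver and cortex. Over all 21292 genes the shares were 0.0611% and 0.0564%. At an unadjusted p under 0.05, 2 of the 28 and 0 of the 29 genes passed, and DESeq2 called 0 and 0 of them.

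Other genes of the pathway were followed in 6 further lists. In liver of mice 1 to 16, where 21.1% of all genes tested fell and 23.5% rose, 3 of 8 genes of SREBP processing and sterol sensing fell and 0 rose, and 7 of 11 genes of esterification and intracellular transport rose and 3 fell. Of 6 oxysterol and bile acid genes tested 4 rose and 1 fell, of 5 lipoprotein receptor genes 1 rose and 0 fell, and of 8 genes of non-sterol isoprenoid branches 1 rose and 3 fell. Among 12 further targets of LXR and SREBP 5 rose and 6 fell. No test was run on the lists.

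Named after their values were seen, Mmab, a cobalamin adenosyltransferase gene that shares its promoter with Mvk, fell with a log2 change of -1.98 (adjusted p = 4.95e-10), and Srebf1, which encodes SREBP1, with -1.05 (adjusted p = 0.00238). Fasn, fatty acid synthase, fell with -2.18 (adjusted p = 7.78e-07) in liver but rose with 3.74 (adjusted p = 0.00312) in muscle, where Elovl6, a fatty acid elongase, and Scd1, a desaturase, rose with 4.20 (adjusted p = 0.00146) and 3.45 (adjusted p = 0.000861), in the muscles whose adipocyte markers rose. With the adipocyte covariate Fasn stood at 0.36 and Elovl6 at 1.33 and both calls were lost, while Scd1 kept its call. The call of Fasn was also lost without IF mice 9, 10, 12 and 16. The liver calls of 15 list genes, Srebf1 among them at -0.76, were lost with the erythrocyte covariate. With the adipocyte covariate 9 list genes lost their muscle calls, and 2 of these changed sign, Npc2 from 0.50 to -0.26 and Aacs from 1.31 to -0.58. In liver Cyp39a1, an oxysterol hydroxylase, rose with 2.70 (adjusted p = 1.87e-09), Cyp46a1, cholesterol 24-hydroxylase, with 1.98 (adjusted p = 2.17e-08), and Npc2, which carries cholesterol out of lysosomes, with 1.78 (adjusted p = 1.8e-09). Soat2, which esterifies cholesterol, fell with -0.81 (adjusted p = 4.17e-05). In muscle of these mice, where 11.5% of all genes tested rose and 11.6% fell, the lists had 0 of 8, 3 of 9, 1 of 2, 1 of 4, 1 of 8 and 4 of 12 genes tested that rose, in the order given for the lists, and 1, 0, 0, 0, 0 and 3 that fell. Cortex of the males had 3 of the list genes called, Dhdds at 0.20 (adjusted p = 0.0361), Mbtps1 at 0.25 (adjusted p = 0.0208) and Soat1 at -0.20 (adjusted p = 0.048), where 3.79% of all genes tested rose and 3.43% fell. With the oligodendrocyte covariate they stood at 0.23, 0.09 and -0.19, and all 3 calls were lost. Without mice 2, 4, 11 and 14 they stood at 0.15, 0.21 and -0.22, again without a call. The calls were also lost with the replicate number as a block (0.20, 0.26 and -0.19). Both the inclusion of the cortex library of mouse 1 (0.17, 0.23 and -0.17) and the omission of AL mouse 2 and IF mouse 10 (0.17, 0.23 and -0.20) ended them too. Dhdds (0.20) and Soat1 (-0.20) lost their calls without a filter. In mice 25 to 40 edgeR called 0 genes of the lists in any tissue.

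The promoters of the 31 genes were searched for short sequence motifs on both strands. RefSeq promoter windows of the mouse build GRCm38.p6, a different build from that of the counts, run from 250 bases before to 50 bases after the start of a gene and were found for 26 of the 31 genes; Abcg1, Fdft1, Fdps, Sqle and Stard4 were not matched. The CCAAT box (CCAAT), bound by the factor NF-Y that acts with SREBP at many sterol genes, was in 21 of the 26 genes (80.8%) and in 41.1% of all 27025 genes with a window, and 15 of 16 enzymes with a window held it. It was not limited to genes that fell in male liver. Pmvk, Mylip, Abcg5 and Abcg8, which rose there, held it, as did Cyp51, Ebp, Tm7sf2 and Ggps1, which did not pass. The GC box (GGGCGG), bound by SP1, was in 20 (76.9%, against 38.2% of all genes), and the E box (CACGTG) in 6 (23.1%, against 8.09%). The sterol regulatory element (SRE, TCACNCCAC) was in 1 of the 26, Hmgcs1 (3.85%, against 1.44% of all genes). With at most 1 base changed, a search added after the data were seen, it was in 12 (46.2%, against 26.7%). The DR4 element of LXR was in 0 of the 26 and in 0.0148% of all genes. Matches of different motifs can share bases, no test was run, and a match is a description of the letters in the window. Because they show how the boxes are placed, the 150 bases before the start are printed for 6 enzymes that fell in male liver and for Cyp51, which did not pass, chosen after their values were seen. They are Hmgcs1 at chr13:119690201-119690350 (forward strand), Mvk at chr5:114444119-114444268 (forward strand), Mvd at chr8:122443423-122443572 (reverse strand), Msmo1 at chr8:64733579-64733728 (reverse strand), Nsdhl at chrX:72918371-72918520 (forward strand), Sc5d at chr9:42264301-42264450 (reverse strand) and Cyp51 at chr5:4104698-4104847 (reverse strand), each written along the strand of its gene, with the CCAAT box (CCAAT or its complement ATTGG) and the SRE in capitals:
Hmgcs1: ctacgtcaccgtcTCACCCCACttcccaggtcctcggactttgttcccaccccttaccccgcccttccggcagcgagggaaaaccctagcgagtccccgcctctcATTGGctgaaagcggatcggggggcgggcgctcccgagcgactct
Mvk: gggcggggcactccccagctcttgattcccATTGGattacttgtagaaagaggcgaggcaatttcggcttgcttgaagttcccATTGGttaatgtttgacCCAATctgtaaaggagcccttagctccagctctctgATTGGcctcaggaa
Mvd: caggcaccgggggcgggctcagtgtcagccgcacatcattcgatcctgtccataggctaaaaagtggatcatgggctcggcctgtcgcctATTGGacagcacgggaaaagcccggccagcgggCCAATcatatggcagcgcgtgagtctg
Msmo1: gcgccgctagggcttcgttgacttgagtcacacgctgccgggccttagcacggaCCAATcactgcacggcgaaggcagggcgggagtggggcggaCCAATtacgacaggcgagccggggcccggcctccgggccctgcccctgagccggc
Nsdhl: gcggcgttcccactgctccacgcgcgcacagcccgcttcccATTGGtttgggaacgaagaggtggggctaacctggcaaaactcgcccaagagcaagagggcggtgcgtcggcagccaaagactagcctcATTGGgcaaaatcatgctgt
Sc5d: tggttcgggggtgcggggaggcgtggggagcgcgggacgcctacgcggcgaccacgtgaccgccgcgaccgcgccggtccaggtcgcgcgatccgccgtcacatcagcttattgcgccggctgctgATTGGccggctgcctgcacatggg
Cyp51: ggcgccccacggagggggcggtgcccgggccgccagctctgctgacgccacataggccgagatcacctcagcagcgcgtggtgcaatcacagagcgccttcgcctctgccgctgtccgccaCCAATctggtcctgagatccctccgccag

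Mvk had 4 CCAAT boxes in these 150 bases, Mvd, Msmo1 and Nsdhl had 2, and Hmgcs1, Sc5d and Cyp51 had 1. Lss and Insig1, which also fell in male liver and are not printed, had 1 and 0 in the same 150 bases. The box of Insig1 lay further upstream, at -216 to -212. Counted from the start, the SRE of Hmgcs1 lay at -137 to -129 and its CCAAT box at -45 to -41. Cyp51, which had the box at -29 to -25, is the enzyme of the 7 printed whose mRNA did not pass in liver.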

How the data were processed

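The deposited table holds raw read counts per gene, which the authors obtained by aligning reads of poly-A, strand-specific libraries from a NovaSeq to mm39 (GRCm39) with Hisat2 and counting with featureCounts. The submitters' processing notes name CASAVA and HISAT2 without versions. Counts of 95 of the 96 libraries were used, and the cortex library of AL mouse 1 was left out by a rule given with the gene list without its reason. Its Xist and Y-linked counts, checked here, went against its label. Libraries were grouped by the tissue, sex and diet of their labels. The table had 0 columns without a sample.

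From the counts, each tissue and cohort was fitted alone with edgeR 4.0.16 in R 4.3.3 (limma 3.58.1), with normalization by the trimmed mean of M values (TMM), robust quasi-likelihood dispersions, the expression filter at a minimum count of 10 and a minimum total of 15, and Benjamini-Hochberg adjustment over all genes tested at 0.05. The scripts were tested on simulated data. Standard errors are the log2 fold change over the square root of the F statistic. CPM used TMM factors over all 95 libraries, and RPKM are CPM per kilobase of the gene length in the table. Interactions of sex and diet were fitted per tissue, and differences between tissues per cohort. AL and IF mice with the same replicate number are different animals. Libraries of the tissues were taken as from the same animal where their names carry the same mouse number, and their deviations from the group means correlated with r from -0.108 to 0.183. The liver correlated best with its own number for 5 of 16 muscles and 1 of 15 cortices in males and 2 of 16 and 3 of 16 in females, where chance gives about 1. The fit with the mouse as a block is among the alternatives.

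Total counts, given per group, were at least 26097314 per library, where 1 CPM before scaling is 26.1 counts with a counting error of 19.6%, and 100 CPM has one of 1.96%. As alternatives, normalization was by RLE, testing by DESeq2 1.42.0 (Wald), the filter was dropped except for genes without a count or raised to 10 counts in each library, p was left unadjusted, AL mouse 2 and IF mouse 10 were left out (7 males per group, 6 AL in cortex), the replicate number was a block, and the left-out library was included. Marker sums as covariates and the omission of libraries high in markers were added after the data were seen, as was the count of tissue differences over genes tested in both tissues. Members and lists were chosen with earlier results of these data known. By rule, values were given for members called in both cohorts with the same sign (none), for Srebf2, Insig1, Insig2, Nr1h3 and Abca1, for members with an interaction of sex and diet, and for members with opposite calls in a pair of tissues whose difference passed; other genes are said to be named after their values were seen. Promoter sequences are from RefSeq (GRCm38.p6), read in Python 3.11.15 with pandas 2.3.3; figures used matplotlib 3.10.9.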

Additional observations from a re-analysis of the deposited data

Results flagged for a closer look

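In each group of 7 or 8 libraries, the highest and the lowest value of the members named in that tissue were compared with the nearest other value by Dixon's ratio. Of 160 groups tested, 11 held a mouse set apart from the rest, where chance gives about 1 in 20. The count is near that share, and the groups are not independent, since the same mice enter for each gene. Nr1h3 was high in liver of male IF mouse 10, with 235 CPM against 186 CPM in the nearest mouse. Nr1h3 was high in liver of female AL mouse 28, with 215 CPM against 165 CPM in the nearest mouse. Sqle was high in liver of male AL mouse 2, with 77.3 CPM against 40.2 CPM in the nearest mouse. Sqle was high in liver of male IF mouse 11, with 14.6 CPM against 7.90 CPM in the nearest mouse. Hsd17b7 was high in liver of male AL mouse 2, with 40.1 CPM against 27.96 CPM in the nearest mouse. Mylip was high in liver of male AL mouse 1, with 7.17 CPM against 4.70 CPM in the nearest mouse. Acat2 was high in muscle of male IF mouse 12, with 32.2 CPM against 18.1 CPM in the nearest mouse. Lss was high in muscle of male IF mouse 12, with 6.77 CPM against 4.45 CPM in the nearest mouse. Abcg1 was high in cortex of male IF mouse 14, with 58.4 CPM against 54.7 CPM in the nearest mouse. Dhcr7 was low in muscle of male IF mouse 15, with 6.67 CPM against 7.73 CPM in the nearest mouse. Dhcr7 was low in muscle of female AL mouse 28, with 5.90 CPM against 9.43 CPM in the nearest mouse.

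The response to the diet differed between the cohorts by the interaction test in 28 cases, given as the female minus male difference on the log2 scale. In liver the more positive female responses were those of Hmgcs1 2.95, Mvk 1.27, Mvd 2.46, Fdps 2.62, Fdft1 0.73, Sqle 2.51, Lss 1.66, Msmo1 1.75, Nsdhl 2.31, Hsd17b7 1.03, Sc5d 1.64, Dhcr7 2.39, Srebf2 0.85, Insig1 1.44, Stard4 0.86. The more negative ones in liver were Mylip -2.02, Abcg5 -1.21, Abcg8 -0.82. In muscle the differences were Acat2 -1.31, Fdft1 -0.41, Sqle 0.64, Dhcr7 0.59, Srebf2 0.62, Scap 0.27, Insig1 -1.02, Mylip -0.94, Abca1 -1.31, and in cortex Abcg1 -0.28. Without the libraries high in markers, Acat2 (-0.60), Insig1 (-0.18) and Sqle (0.66) in muscle were not called. Neither were Fdft1 in liver (0.64) and Abcg1 in cortex (-0.25). The response differed between tissues, with opposite calls in liver and muscle of mice 1 to 16, for Fdft1 (liver minus muscle -1.10), Lss (liver minus muscle -1.99), Hsd17b7 (liver minus muscle -1.58).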

How the results depend on the processing

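Of 848 values of single genes under the alternatives, 785 kept their direction and their side of the threshold, 28 lost a call, 16 gained one and 19 changed sign. Of 83 counts of the 31 genes called, 68 stayed within 1.5 times the reported count. In male liver 19 to 24 genes were called, and Hmgcs1 ran from -2.99 to -2.90.

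DESeq2 called 2259 genes and 6 members in male cortex, 6 genes in female liver, 97 genes and 1 member in female muscle, 68 genes in female cortex, 713 genes for the interaction in cortex, and 216 and 269 genes for the female tissue differences against muscle and cortex. An unadjusted p called 5309 genes in male muscle, 4400 genes and 12 members in male cortex, 919 genes in female liver, 1644 genes and 4 members in female muscle, 2069 genes and 4 members in female cortex, 4527 genes for the interaction in muscle, 3007 genes and 7 members for that in cortex, and 2041 genes with 2 members and 2494 genes for the female tissue differences. Without a filter 7 members were called in male muscle, 1 in male cortex, and 5 genes in female muscle. RLE factors gave 28 genes for the female liver minus cortex difference. Without AL mouse 2 and IF mouse 10, which left 6 AL and 7 IF libraries, 498 genes and 1 member were called in male cortex, and with the cortex library of mouse 1 included 294 genes and 0 members.

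Added after the data were seen, the erythrocyte covariate left 4404 genes in male liver and the oligodendrocyte covariate 1 gene and 0 members in male cortex. Without mice 2, 4, 11 and 14 male cortex had 76 genes and 0 members, and without mice 34 and 36 female cortex had 1 gene. Without all of the doubted libraries the interaction in cortex had 15 genes and 0 members, and the female liver minus cortex difference 3 genes. The cause of these shifts was not tested.

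The sign changes of members named in the text belonged to values that had not passed. Abca1 in male liver was 0.055 with 7 mice per group and 0.057 without mice 9, 10, 14 and 16. In the further lists, Npc2 and Aacs, called higher in male muscle, turned to -0.258 and -0.58 with the adipocyte covariate and lost their calls. Insig1 in male muscle was -0.781 with the adipocyte covariate and -0.277 without mice 9, 10, 12 and 16. Srebf2 in male cortex was -0.003 without AL mouse 2 and IF mouse 10 and -0.037 without the mice high in Ttr. In female liver RLE and DESeq2 each gave 0.002 for Hsd17b7 and 0.007 for Sc5d, and without mouse 28 Srebf2 was -0.003, Insig1 -0.051, Nsdhl -0.014 and Dhcr7 -0.059. In female cortex Insig1 and Insig2 were 0.004 without mice 34 and 36. The interaction in liver was 0.049 for Nr1h3 and -0.055 for Abca1 without the doubted libraries.

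AL and IF mice share only a replicate number. Correlations of same-numbered deviations ran from -0.262 to 0.457, and at most 4 of 8 pairs passed 0.1 in any group. With the replicate number as a block the members called were 24 in male liver, 10 in male muscle and 0 in male cortex, where 382 genes were called, and 0 genes were called in female cortex; Sc5d in female liver was 0.024. The interaction with this block called 19, 8 and 1 members in liver, muscle and cortex. With the mouse number as a block across tissues 19 and 19 members differed in males, 17 and 19 of them tested in both tissues, and 1 and 0 genes in females.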
